A study of Mus musculus with 18 samples.

Results

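Mitosis and chromosome segregation were followed through 46 genes chosen by symbol as established mitosis genes, with earlier results of these data known. They encode regulators of the passage from G2 into mitosis and parts of the spindle, the kinetochore, condensin and the cytokinesis machinery. All 46 symbols were found among the 54532 genes of the count table, and all 46 passed the filter on low counts that left 14876 genes for testing. The cells were plasmacytoid dendritic cells (pDCs), immune cells known for secreting type I interferon, differentiated over 7 days in Flt3 ligand (Flt3L, 80 ng/mL) from marrow cells of C57BL/6 wild-type mice. Beads carrying an antibody to the surface protein B220 enriched them to a stated routine purity of 80%, checked by flow cytometry as B220+ CD11b- CD11cint cells. All 6 groups shared this preparation and held 3 libraries each: untreated cells at 0 h, cells given the vehicle (named as Limulus amebocyte lysate, LAL) at 0, 6 and 16 h, and cells given imiquimod, a small agonist of the RNA sensor TLR7, at 2.5 µg/mL for 6 and 16 h. Whether the 3 libraries of each group stem from different mice or cultures is not stated in the labels, so p-values here measure only the spread between libraries, which may be technical.

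A cell enters mitosis when CDK1, bound to cyclin B, becomes active and condensin packs the replicated chromosomes. Kinetochores, built on centromeric chromatin that holds CENP-A, then attach to spindle microtubules, and the spindle checkpoint keeps CDC20 and the anaphase-promoting complex from starting anaphase until attachment is complete. After anaphase the centralspindlin complex of KIF23 and RACGAP1, with PRC1, ECT2 and anillin, divides the cell. Transcripts of most of these genes peak in G2 and mitosis and are low in resting cells, so their level in bulk RNA is widely used as a measure of cycling. Mature pDCs divide little, while dendritic cell precursors in Flt3L cultures divide. In bulk RNA, fewer cycling cells and less of these transcripts per cell cannot be told apart.

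The libraries held between 10609741 and 13447018 counts in total (highest to lowest 1.27). Levels are given as CPM, the counts of a gene relative to the library's total scaled to a fixed size, after TMM scaling, which evens out differences in composition between libraries. The lowest count of any member in any library was 28, for Spc24. Among markers of pDCs, the lectin gene Siglech stood at 1108 ± 12.4 CPM and the transcription factor gene Tcf4 at 1486 ± 57.9 CPM (mean ± SD, n = 3) in the vehicle at 0 h. Genes listed as markers of other cells were detected too. At 0 h in the vehicle, 6 monocyte or macrophage genes summed to 1933 to 1952 CPM and 6 cDC1 genes to 1371 to 1415 CPM. The sum was 828 to 846 CPM for 10 hematopoietic progenitor genes and 7534 to 7630 CPM for 12 pDC genes. Whether transcripts of the lists for other cells came from such cells or from pDCs was not tested. Neutrophil markers did not exceed 0.874 CPM in sum in any library, with Retnlg at 0 throughout.

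Promoters of genes expressed in G2 and mitosis are known for a cell cycle genes homology region (CHR), the site of the DREAM and MuvB complexes, and for CCAAT boxes bound by NF-Y. In the RefSeq promoter table (GRCm38.p6), 37 of the 46 members were found, with 40 windows of 300 bases that run from 250 bases before the start of transcription to 50 after it. The 9 members without an entry were Aurkb, Ccna2, Cdc25c, Incenp, Kif20a, Smc4, Spc24, Tpx2 and Zwilch. A CHR was searched as TTTGAA or TTCGAA on either strand, and the CCAAT box as CCAAT on either strand. A CHR lay in 33 of the 40 windows (82.5%), against 14.3% of 12464 windows of the genes tested and 19.2% of all 32851 windows in the table. CCAAT lay in 80% of the members' windows, against 37.7% and 37.4%, and both motifs in 75%, against 5.86% and 7.52%. A match of letters is a description and shows no binding.

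The 100 bases upstream of the start are shown for 7 members picked as examples of the 3 kinds of response to imiquimod at 16 h described further on. They run 5′ to 3′ on the strand of the gene. Matches to either motif are in capitals (TTTGAA or its reverse complement TTCAAA for the CHR, CCAAT or its reverse complement ATTGG). Top2a (chr11:99024190-99024289, minus strand), Kif11 (chr19:37376282-37376381, plus strand) and Kntc1 (chr5:123749626-123749725, plus strand) were higher with imiquimod. Ccnb2 (chr9:70421555-70421654, minus strand) and Cdc20 (chr4:118437344-118437443, minus strand) were not called. Kif23 (chr9:61946800-61946899, minus strand) and Racgap1 (chr15:99651657-99651756, minus strand) were lower. In Kntc1 the motifs share a base, so that the capitals run on as a single stretch.
Top2a: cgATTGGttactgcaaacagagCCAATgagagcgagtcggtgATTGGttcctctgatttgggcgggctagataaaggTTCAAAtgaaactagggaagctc
Kif11: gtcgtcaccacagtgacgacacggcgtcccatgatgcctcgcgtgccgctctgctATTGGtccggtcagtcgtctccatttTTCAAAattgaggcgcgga
Kntc1: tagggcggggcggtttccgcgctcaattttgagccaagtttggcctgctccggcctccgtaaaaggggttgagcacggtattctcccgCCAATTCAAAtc
Ccnb2: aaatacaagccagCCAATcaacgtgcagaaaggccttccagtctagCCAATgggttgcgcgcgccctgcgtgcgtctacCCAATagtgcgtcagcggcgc
Cdc20: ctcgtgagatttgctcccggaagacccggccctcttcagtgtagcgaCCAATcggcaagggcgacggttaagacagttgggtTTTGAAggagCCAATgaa
Kif23: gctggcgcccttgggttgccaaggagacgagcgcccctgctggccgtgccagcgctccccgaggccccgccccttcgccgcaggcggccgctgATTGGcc
Racgap1: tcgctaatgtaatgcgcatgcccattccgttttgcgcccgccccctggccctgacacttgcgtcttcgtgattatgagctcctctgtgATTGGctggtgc

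In Ccnb2, Kif23 and Racgap1 a TTTGAA lay just past the start, its leading base 5, 3 and 6 bases into the transcript, outside the stretch shown. Members of each response held both motifs. Of the 38 members higher with imiquimod at 16 h, 30 had a window, 23 of these with a CHR and 22 with CCAAT. The higher members shown above all hold both motifs, whereas Birc5, Mad2l1, Ncaph, Nuf2 and Nusap1, also higher, held neither in their windows. All 4 members that were lower had a window with both motifs, as did the 3 of 4 uncalled members that were in the table.

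The summed level of the 46 genes gave the course of the whole set. It was 2830, 2874 and 2895 CPM in untreated cells, and 2835, 2851 and 2861 CPM in the vehicle at 0 h. In the vehicle it stood at 3005 ± 65.5 CPM (mean ± SD, n = 3) at 6 h and at 1239 ± 32.5 CPM at 16 h, or 105% and 43.5% of the vehicle at 0 h. With imiquimod it was 2397 ± 34.2 CPM at 6 h (84.1%) and 2206 ± 19.0 CPM at 16 h (77.4%). The imiquimod libraries lay below the vehicle libraries at 6 h and above them at 16 h, with no overlap at either time. The order of the 2 imiquimod groups depends on the scaling. TMM factors were 0.817 to 0.837 with imiquimod at 6 h and 1.01 to 1.02 at 16 h. Raw counts of the 46 genes were 24368, 24455 and 24795 at 6 h and 30249, 29592 and 27269 at 16 h. Relative to library totals alone, the imiquimod sum was thus higher at 16 h than at 6 h. Mki67 and Top2a are the most abundant members per length of exon and weigh most in this sum.

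**Figure D1:**
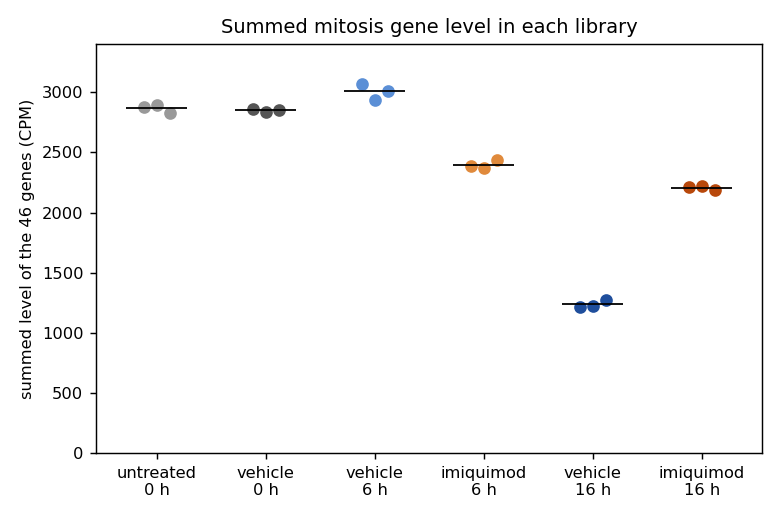
Summed level of the 46 mitosis genes in CPM after TMM scaling (y axis, from 0) in each of the 18 libraries, by group (x axis). Points are libraries and bars are means of 3. The vehicle libraries at 16 h, between 1218 and 1277 CPM, lie lowest, and the imiquimod libraries at 16 h lie between 2186 and 2223 CPM.

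The vehicle libraries showed what happened without imiquimod. Between untreated cells and the vehicle at 0 h, edgeR called no member, with a call meaning an adjusted p (Benjamini-Hochberg, over all genes tested) under 0.05, where 0% of all genes tested were called. At an unadjusted p under 0.05 the count was 0 of the 46 members and 708 of all genes, and DESeq2 called 0 genes. After 6 h of vehicle, 21 members were higher than at 0 h, 5 were lower and 20 were not called (52.9% of all genes tested were called), with a median log2 fold change of 0.10. The highest were Plk1, the polo-like kinase that drives several steps of mitosis (0.78, SE 0.091, adjusted p = 9.89e-12), and Cdc20 (0.69, SE 0.082, adjusted p = 2.25e-11). Kif20a (0.63), Cenpf (0.59), Prc1 (0.57) and Anln (0.57), whose products act at the kinetochore and in cytokinesis, were also higher. The 5 that were lower were Kntc1 (-0.51), Zwilch (-0.37), Smc2 (-0.21), Kif4 (-0.16) and Mki67 (-0.10). Of these, Kif4 and Mki67 were not called without vehicle 0 h replicate 1 (-0.10 and -0.09), vehicle 0 h replicate 3 (-0.16 and -0.07), or in a fit of those groups alone. Kif4 also lost its call without vehicle 6 h replicate 1 (-0.13) or 3 (-0.14), and Mki67 without vehicle 6 h replicate 2 (-0.03). Among the higher members, leaving out a library ended the call of Ccnb1 (0.17 without vehicle 6 h replicate 1), Ccnb2 (0.17 without vehicle 6 h replicate 2), Bub3 (0.10 without vehicle 0 h replicate 3 or vehicle 6 h replicate 2) and Ube2c (0.26 and 0.24 without vehicle 0 h replicate 2 or 3, 0.21 without vehicle 6 h replicate 3).

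By 16 h in the vehicle all 46 members had fallen against 0 h (58.4% of all genes tested were called and 30% were lower). Of the members 34 fell at least 2-fold, as did 926 of the 14876 genes tested. The median log2 fold change was -1.27, where that of all genes tested was 0.00. Kntc1 (-2.17, SE 0.094, adjusted p = 3.03e-32), Ncaph (-2.15, SE 0.099, adjusted p = 2.01e-32), Nuf2 (-1.89) and Spc24 (-1.89) fell most. Bub3 (-0.23, SE 0.05, adjusted p = 8.16e-05), Racgap1 (-0.42), Smc4 (-0.49) and Kif23 (-0.54) fell least. The fall came after 6 h: from 6 to 16 h in the vehicle all 46 were lower, by a median of -1.55. Of all genes tested, 30% were called and 15.4% were lower. At least 2-fold lower were 40 members, and 337 of the 14876 genes tested.

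At 6 h most members were lower with imiquimod than with the vehicle of the same time. Of the 46, 34 were lower, 5 higher and 7 not called, where 76.9% of all genes tested were called, 37.7% higher and 39.2% lower. The median log2 fold change was -0.40, against -0.04 for all genes tested. Ncapd2, a condensin subunit gene (-1.38, SE 0.05, adjusted p = 3.03e-40), Cenpa (-1.36, SE 0.059, adjusted p = 4.89e-35), Ccnb2 (-1.22) and Cdc20 (-1.21) had the lowest values. The 5 higher members were Tpx2 (0.66, SE 0.057, adjusted p = 8.56e-18), Zwilch (0.38), Kif4 (0.30), Smc2 (0.16) and Kif23 (0.14). Those not called were Kntc1 (0.08), Bub3 (0.05), Top2a (0.03), Cdk1 (0.00), Cenpe (-0.06), Ccnb1 (-0.11) and Incenp (-0.12). For Cdk1, the central mitotic kinase gene, the libraries gave 26.8, 26.3 and 23.7 CPM in the vehicle and 25.9, 25.3 and 25.6 CPM with imiquimod. With TMM scaling the imiquimod values of Cdk1 thus lay inside the range of the vehicle.

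The split at 6 h depends on the scaling. Scaled by library totals in place of TMM, the median of all genes at 6 h shifted by -0.35, 31.1% in place of 49.0% of calls were higher, and 1 member (Tpx2, 0.31) was higher and 43 were lower. Kif4 (-0.05), Smc2 (-0.19) and Kif23 (-0.21) then changed sign, and Zwilch (0.03) was not called. The 7 members not called with TMM were then called lower, among them Cdk1 (-0.35), Cenpe (-0.41) and Ccnb1 (-0.46). Measured from the median of all genes, the members' median was -0.36 under both scalings, with 37 members below that median and 9 above it. The 2 scalings match here by construction, because the change moves all genes by about the same amount. Kif23 was also not called at 6 h without vehicle 6 h replicate 3 (0.08), nor Smc2 in the absence of replicate 2 of the vehicle (0.10) or replicate 1 of imiquimod (0.11).

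At 16 h the order of the groups was the opposite. With imiquimod 38 of the 46 members were higher than in the vehicle, 4 were lower and 4 were not called, where 77.2% of all genes tested were called, 39.1% higher and 38.1% lower. The median log2 fold change was 0.98, against 0.00 for all genes tested. At least 2-fold higher were 23 members, and 2470 of the 14876 genes tested. Kntc1 (2.74, SE 0.088, adjusted p = 2.81e-41), Zwilch (2.38, SE 0.1, adjusted p = 1.95e-35), Ncaph (2.02, SE 0.1, adjusted p = 2.02e-31) and Spc24 (1.85) had the highest values. The lower members were Kif23 (-0.92, SE 0.046, adjusted p = 5.16e-31), Cenpa (-0.91, SE 0.066, adjusted p = 2.04e-21), Racgap1 (-0.61) and Cenpf (-0.33). Those not called were Ccnb2 (-0.18, adjusted p = 0.129), Cdc20 (0.11, adjusted p = 0.403), Ube2c (0.25, adjusted p = 0.114) and Cdc25c (0.39, adjusted p = 0.059). Since the vehicle libraries at 16 h also enter the comparison with 0 h, this comparison and the fall in the vehicle share those 3 libraries. Plk1 (0.29, SE 0.12, adjusted p = 0.0264) was not called without imiquimod 16 h replicate 1 (0.18), replicate 3 (0.29) or vehicle 16 h replicate 3 (0.24), nor by DESeq2 (0.29), while Cdc25c was called higher in the absence of replicate 2 of either the vehicle (0.50) or imiquimod (0.50) at 16 h, and Ube2c without imiquimod 16 h replicate 3 (0.37).

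**Figure D2:**
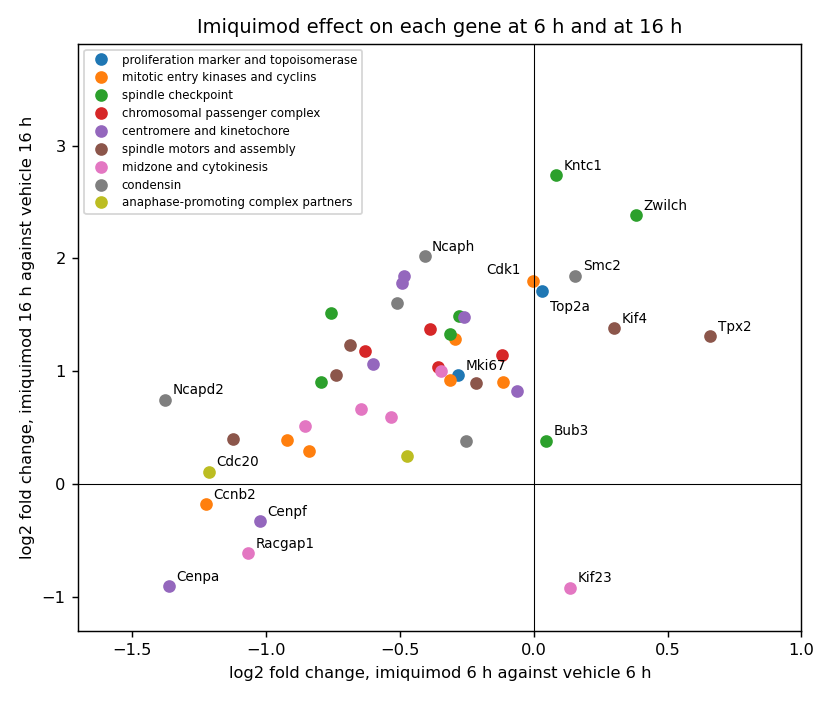
Each point is 1 of the 46 genes, coloured by role; the x axis is the log2 fold change of imiquimod against the vehicle at 6 h and the y axis that at 16 h. Most points lie left of 0 and above 0, Kntc1 (2.74) and Zwilch (2.38) lie highest, and Kif23 is the only point right of 0 on the x axis and below 0 on the y axis; under scaling by library totals the x values of Kif23, Kif4, Smc2, Kntc1, Top2a and Bub3 fall below 0.

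Genes listed as markers of other cells changed with imiquimod as well. At 6 h, summed levels in the vehicle and with imiquimod were 1613 to 1756 against 225 to 233 CPM for monocyte or macrophage markers, 1246 to 1261 against 527 to 553 CPM for cDC1 markers, and 287 to 302 against 154 to 159 CPM for cDC2 markers. Hematopoietic progenitor markers had 840 to 875 against 446 to 449 CPM at 6 h, B cell markers 79.7 to 84.0 against 148 to 162 CPM, and pDC markers 7351 to 7512 against 6222 to 6461 CPM. At 16 h the values were 2037 to 2114 against 87.8 to 105 CPM for monocytes or macrophages, 1109 to 1146 against 492 to 527 CPM for cDC1, 289 to 295 against 128 to 131 CPM for cDC2, 894 to 915 against 474 to 478 CPM for progenitors, 80.1 to 98.9 against 169 to 178 CPM for B cells, and 8972 to 9082 against 4353 to 4432 CPM for pDCs. By gene, all 5 monocyte or macrophage markers tested were lower at 16 h, while at 6 h 4 were lower and 1 higher. Of all genes tested, 39.2% were lower at 6 h and 38.1% at 16 h, while 37.7% were higher at 6 h and 39.1% at 16 h. Of the 8 progenitor markers tested, 6 were lower at 16 h and 1, Gfi1, was higher. Among the 5 B cell markers tested, 4 were lower at 16 h and only Pax5 (2.64) was higher, so the higher sum came with a single gene. The 12 pDC markers split at 6 h, with 5 higher and 7 lower (-2.53 to 1.76). At 16 h 1 pDC marker was higher, 9 were lower and 2 were not called. In the vehicle from 0 to 16 h, 3 progenitor markers were higher, 2 lower (Mpo and Gfi1) and 3 not called, with a median of 0.01. Of all genes tested, 28.4% were higher and 30% lower in that comparison. T or NK cell markers did not exceed 4.17 CPM in sum in any library, and basophil or mast cell markers did not exceed 3.04 CPM. The part of these markers in the mitosis results was not tested.

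The imiquimod effect at 16 h was higher than that at 6 h for 45 members and lower for 1, Kif23, by a test of the difference itself (56.9% of all genes tested were called, 28.5% higher). The median difference was 1.38 on the log2 scale. It was greatest for Kntc1 (2.65, SE 0.12, adjusted p = 7.45e-31), Ncaph (2.43), Spc24 (2.33) and Ttk (2.27), and of the members with a positive difference it was least for Bub3 (0.34), Racgap1 (0.45) and Cenpa (0.46). In 27 members the gene was lower at 6 h and higher at 16 h, a pattern of 4.31% of all genes tested. Both vehicle groups enter this difference: the vehicle level of all 46 fell between 6 and 16 h, whereas with imiquimod, from 6 to 16 h, 15 members rose, 18 fell and 13 were not called (63.7% of all genes tested were called, 31.9% higher and 31.8% lower), with a median of -0.02. Scaled by library totals, that last split was 28 higher and 7 lower, and the median of all genes shifted by 0.30. Of the calls over all genes, 74.6% were then higher. Measured from the median of all genes, 21 members lay above and 25 below under either scaling, since a shift common to all genes cancels.

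Set beside the vehicle at 0 h, the median member stood at 107% in the vehicle at 6 h, 80.2% with imiquimod at 6 h, 41.5% in the vehicle at 16 h and 86.8% with imiquimod at 16 h. These ratios of group means share their denominator and were not tested. They rest on TMM scaling, with factors of 0.817 to 0.837 for imiquimod at 6 h and 1.06 to 1.07 for the vehicle at 0 h. Scaling by library totals lowers the ratios of imiquimod at 6 h most. With imiquimod at 16 h, 36 of the 46 lay under 100%, from 28.8% for Cenpa, and Zwilch at 172% lay highest. Kntc1 (148%), Smc2 (132%) and Ttk (127%) also lay above their level at 0 h.

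**Figure D3:**
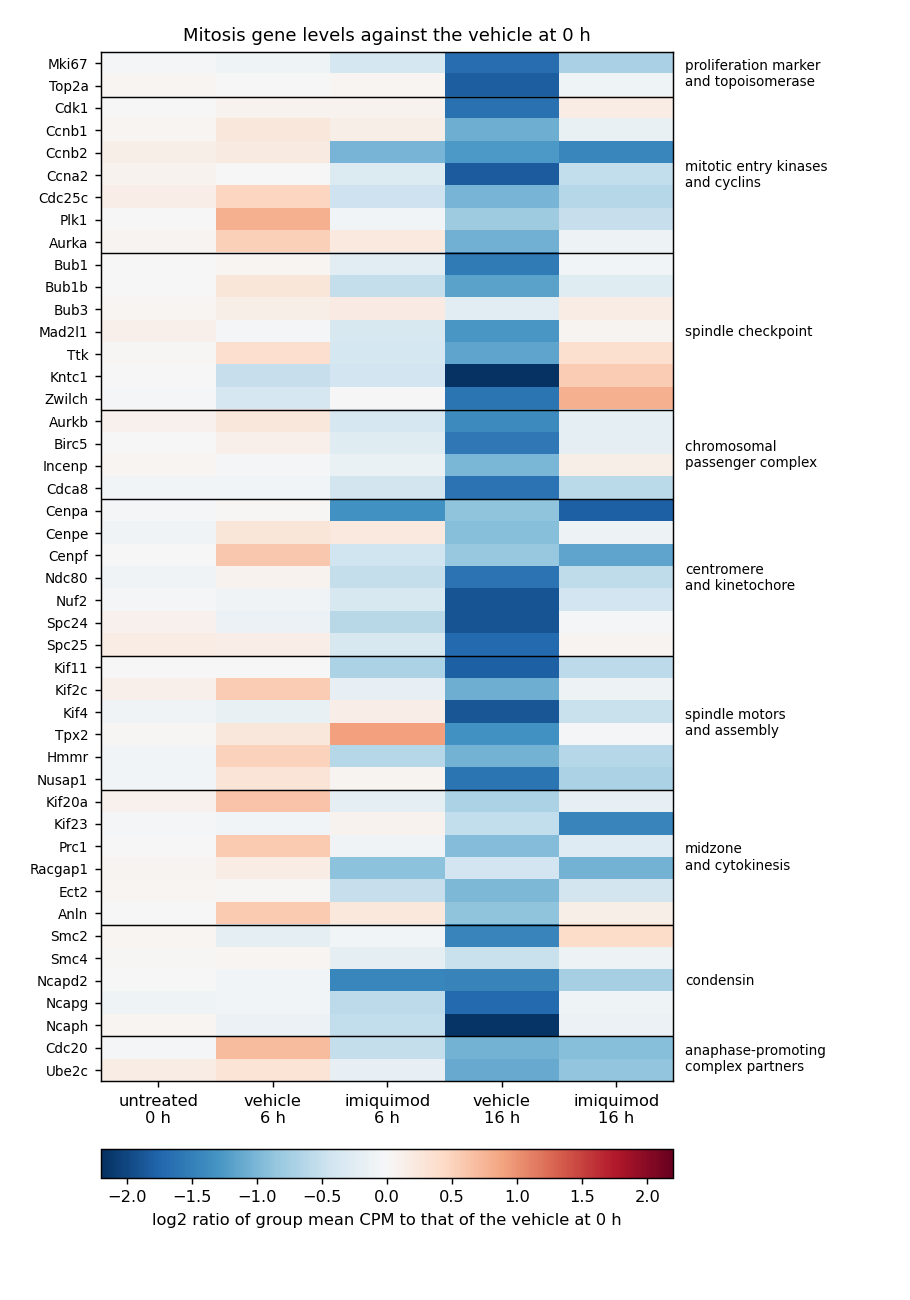
Rows are the 46 genes grouped by role and columns the groups; colour is the log2 ratio of the group's mean CPM to that of the vehicle at 0 h (blue lower, red higher). The column of the vehicle at 16 h is blue in every row, and in the imiquimod column at 16 h Cenpa (28.8% of the vehicle at 0 h), Kif23 (36.5%) and Ccnb2 (36.9%) are the darkest blue.

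Mki67 and Top2a mark cycling cells. Mki67 (mm10 chromosome 7, 135689784 to 135716361, minus strand) encodes the chromosome surface protein Ki-67 and had the highest level per length of the members, 44.6 CPM per kb of exon in the vehicle at 0 h, where the median member had 6.87 and Cdc25c, the lowest, 1.17. Its level was 445, 441 and 460 CPM in the vehicle at 0 h, 442, 385 and 431 at 6 h and 139, 140 and 144 at 16 h. With imiquimod it was 346, 333 and 355 CPM at 6 h and 266, 281 and 278 CPM at 16 h, below every vehicle library at the earlier time (-0.28, SE 0.036, adjusted p = 1.69e-10) and above every one at the later (0.96, SE 0.04, adjusted p = 7.14e-34). Top2a, the gene of the topoisomerase that untangles sister chromatids, was flat until 6 h with TMM scaling, at 352, 334 and 344 CPM in the vehicle and 348, 346 and 359 CPM with imiquimod. Scaled by library totals, Top2a was lower with imiquimod at 6 h (-0.32). At 16 h it had dropped to 90.6, 98.7 and 102 CPM in the vehicle but stood at 327, 320 and 308 CPM with imiquimod (1.71, SE 0.039, adjusted p = 5.76e-54).

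Among the 7 genes of mitotic entry, 5 were lower at 6 h and 5 higher at 16 h. Of all genes tested, 39.2% were lower at 6 h and 39.1% higher at 16 h, and these shares apply to each role below. Ccna2, the gene of cyclin A2, was 64.5, 65.4 and 67.3 CPM in the vehicle and 54.8, 52.6 and 53.4 CPM with imiquimod at 6 h (-0.29, SE 0.058, adjusted p = 4.47e-06). At 16 h the values were 18.3, 16.4 and 20.5 CPM and 45.5, 45.9 and 43.2 CPM (1.29, SE 0.072, adjusted p = 7.39e-28), again with no overlap. Cdk1 had 6.25, 9.58 and 7.57 CPM in the vehicle at 16 h and 26.3, 26.96 and 28.6 CPM with imiquimod (1.80, SE 0.1, adjusted p = 2.44e-28), the latter close to its 22.1, 24.7 and 25.95 CPM at 0 h. The genes of the 2 B-type cyclins, which activate CDK1, differed. Ccnb1 was not called at 6 h, except as lower without vehicle 6 h replicate 2 (-0.23) or with library totals (-0.46). It was higher at 16 h (0.90, SE 0.092, adjusted p = 1.64e-14). Ccnb2 had 27.6, 29.5 and 27.3 CPM in the vehicle and 11.9, 11.04 and 13.3 CPM with imiquimod at 6 h, and 9.19, 11.1 and 10.5 against 9.21, 9.24 and 8.74 CPM at 16 h, where the groups overlapped. The kinase genes Plk1 and Aurka were lower at 6 h (-0.84 and -0.31), and Aurka was higher at 16 h (0.93, SE 0.12, adjusted p = 9.69e-11).

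All 7 spindle checkpoint genes were higher with imiquimod at 16 h, with a median of 1.49. Kntc1 (mm10 chromosome 5, 123749716 to 123821593, plus strand) and Zwilch (mm10 chromosome 9, 64137144 to 64173104, minus strand) encode subunits of the RZZ complex, which recruits dynein and the checkpoint proteins to unattached kinetochores. Kntc1 fell in the vehicle from 42.5, 35.3 and 37.98 CPM at 0 h to 25.6, 27.99 and 28.1 CPM at 6 h and 7.63, 7.71 and 10.3 CPM at 16 h. With imiquimod it was 32.8, 26.3 and 27.4 CPM at 6 h, overlapping the vehicle, and 54.8, 59.6 and 56.8 CPM at 16 h, above every other library of the series. Zwilch had 15.2, 14.2 and 13.95 CPM in the vehicle and 17.8, 19.7 and 19.05 CPM with imiquimod at 6 h, then 5.42, 5.67 and 7.40 against 31.9, 34.03 and 30.9 CPM at 16 h, with no overlap at either time, though scaling by library totals ended the call at 6 h (0.03). Bub3, the gene of the adaptor that brings BUB1 and BUBR1 to kinetochores, fell least of the members in the vehicle. It had 65.97, 64.3 and 62.04 CPM in the vehicle and 86.5, 82.7 and 81.8 CPM with imiquimod at 16 h (0.39, SE 0.049, adjusted p = 6.3e-11). Ttk, the gene of the checkpoint kinase MPS1, had 17.03, 13.4 and 14.9 CPM in the vehicle against 9.12, 8.71 and 9.03 CPM with imiquimod at 6 h, and 5.97, 4.61 and 5.13 against 15.9, 13.8 and 15.2 CPM at 16 h (1.52, SE 0.13, adjusted p = 1.75e-18). The checkpoint genes Bub1 (1.49), Bub1b (0.90) and Mad2l1 (1.33) were higher at 16 h after being lower at 6 h (-0.28, -0.80 and -0.31).

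The 4 genes of the chromosomal passenger complex, which corrects faulty attachments, were all at least 2-fold higher with imiquimod at 16 h, with a median of 1.17. Incenp, the scaffold gene, had 57.3, 54.8 and 55.2 CPM in the vehicle and 49.9, 50.8 and 53.5 CPM with imiquimod at 6 h, a difference that was not called although the groups did not overlap (-0.12, adjusted p = 0.0528). It was called in 12 of the 18 fits with a library left out (-0.15 to -0.12), with library totals (-0.47), with no filter on counts (-0.15) and with only the groups compared (-0.13). At 16 h it had 27.4, 29.97 and 27.1 CPM against 61.1, 63.3 and 62.6 CPM (1.15, SE 0.06, adjusted p = 9.18e-30). Aurkb, the kinase gene (-0.63 at 6 h and 1.18 at 16 h), Birc5, the survivin gene (-0.39 and 1.38), and Cdca8, the borealin gene (-0.36 and 1.03), were lower at 6 h and higher at 16 h.

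Centromere and kinetochore genes split. The 4 genes of the NDC80 complex, the microtubule-binding core of the kinetochore, were lower at 6 h (Ndc80 -0.60, Nuf2 -0.26, Spc24 -0.48 and Spc25 -0.49) and higher at 16 h (1.06, 1.48, 1.85 and 1.78). The call of Nuf2 at 6 h was lost without imiquimod 6 h replicate 3 (-0.17). At 16 h Nuf2 had 6.71, 7.54 and 6.00 CPM in the vehicle and 18.4, 20.7 and 17.6 CPM with imiquimod, and Spc24 had 3.12, 2.48 and 3.92 CPM against 13.5, 9.91 and 10.9 CPM. The motor gene Cenpe was not called at 6 h, except as lower with library totals (-0.41), and was higher at 16 h (0.82, SE 0.063, adjusted p = 3.33e-20). By contrast Cenpa (mm10 chromosome 5, 30666777 to 30674830, plus strand), the gene of the centromeric histone H3 variant, was lower at both times. It had 80.7, 80.1 and 81.8 CPM in the vehicle and 31.96, 31.6 and 30.9 CPM with imiquimod at 6 h, and 45.3, 45.6 and 37.9 against 23.1, 23.4 and 22.2 CPM at 16 h, with no overlap at either time. Cenpf, the gene of a large kinetochore and nuclear matrix protein, was likewise lower at both, at 116, 117 and 116 against 55.8, 62.5 and 53.5 CPM at 6 h and 39.6, 42.4 and 47.4 against 33.8, 34.6 and 34.8 CPM at 16 h.

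Of the 6 genes of spindle motors and assembly factors, all were higher at 16 h, with a median of 1.10. Kif11, which encodes the motor Eg5 that pushes the spindle poles apart, had 102, 93.00 and 97.5 CPM in the vehicle and 59.4, 62.2 and 60.3 CPM with imiquimod at 6 h (-0.68, SE 0.05, adjusted p = 1.3e-21). At 16 h it had 28.02, 27.2 and 29.2 CPM against 62.9, 70.1 and 65.2 CPM (1.23, SE 0.059, adjusted p = 2.41e-32). Both vehicle and imiquimod libraries were apart at each time, in opposite order. Tpx2, the gene of the activator of Aurora A on the spindle, went the other way at 6 h, with 51.96, 51.9 and 52.03 CPM in the vehicle and 76.9, 79.3 and 90.2 CPM with imiquimod, the highest of all groups. At 16 h it had 16.3, 17.6 and 17.9 CPM in the vehicle and 43.3, 42.7 and 42.96 CPM with imiquimod (1.31, SE 0.075, adjusted p = 2.55e-27). Kif4, a chromosome-bound motor gene, had 35.9, 37.6 and 36.4 CPM in the vehicle against 43.4, 46.7 and 45.2 CPM with imiquimod at 6 h, and 11.8, 11.3 and 10.2 against 27.7, 31.2 and 27.8 CPM at 16 h. Tpx2 and Kif4 were thus above the vehicle at both times, though for Kif4 not at 6 h under scaling by library totals. Nusap1, the gene of a microtubule-bundling protein, had 42.6, 44.3 and 46.1 CPM with imiquimod at 6 h and 23.4, 26.9 and 27.7 CPM at 16 h, where the vehicle had 14.1, 14.7 and 13.1 CPM. Kif2c (-0.74, then 0.97) and Hmmr (-1.12, then 0.40) were lower at 6 h and higher at 16 h.

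**Figure D4:**
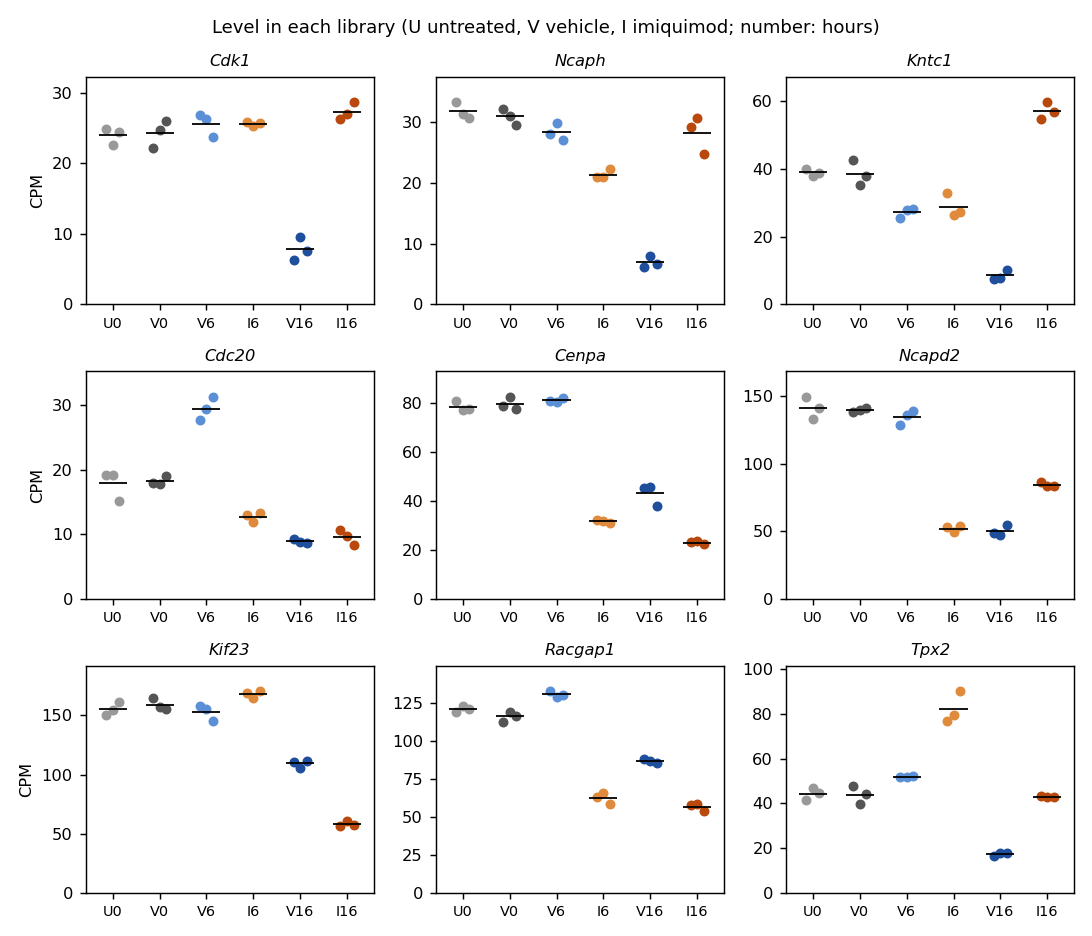
Level in CPM (y axes, each from 0) of 9 genes in the 18 libraries; points are libraries, bars are means of 3, and letters on the x axis give untreated (U), vehicle (V) or imiquimod (I) with the time in hours. Cdk1, Ncaph and Kntc1 are higher with imiquimod than with the vehicle at 16 h, Cdc20 is alike in both, and Cenpa, Kif23 and Racgap1 are lower.

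The cytokinesis genes held the clearest exception. Kif23 (mm10 chromosome 9, 61915905 to 61946774, minus strand) and Racgap1 (mm10 chromosome 15, 99620496 to 99651656, minus strand) encode the motor and the GTPase-activating protein that together form centralspindlin, and both were lower with imiquimod at 16 h while Prc1 (0.66), Kif20a (0.52), Ect2 (0.59) and Anln (1.00) were higher. Kif23 had 165, 157 and 155 CPM in the vehicle at 0 h, 158, 155 and 146 CPM at 6 h and 111, 106 and 112 CPM at 16 h. With imiquimod it had 169, 165 and 171 CPM at 6 h, narrowly above the vehicle, and 56.1, 60.4 and 57.5 CPM at 16 h, the lowest of the series and 1.89-fold under the vehicle. From 6 to 16 h with imiquimod it fell more than any other member (-1.54, SE 0.044, adjusted p = 2.35e-46). Racgap1 had 133, 129 and 130 CPM in the vehicle and 62.8, 66.1 and 58.7 CPM with imiquimod at 6 h (-1.06, SE 0.046, adjusted p = 4.13e-35), and 88.3, 86.8 and 85.5 against 57.6, 58.6 and 54.3 CPM at 16 h (-0.61, SE 0.048, adjusted p = 5.52e-20). At 16 h both centralspindlin genes lay below the vehicle. At 6 h Racgap1 lay below it, while the direction of Kif23 depended on the scaling (-0.21 with library totals) and its call on vehicle 6 h replicate 3 (0.08 without it).

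All 5 condensin genes were higher with imiquimod at 16 h, with a median of 1.61. Smc2 and Smc4 encode the ATPase arms shared by both condensins. Smc4, the more abundant per length at 32.5 CPM per kb in the vehicle at 0 h, had 185, 164 and 174 CPM in the vehicle and 143, 146 and 150 CPM with imiquimod at 6 h, and 122, 115 and 125 against 160, 153 and 159 CPM at 16 h (0.38, SE 0.04, adjusted p = 4.47e-14). Smc2 had 28.4, 30.9 and 33.9 CPM in the vehicle and 113, 111 and 111 CPM with imiquimod at 16 h (1.85, SE 0.055, adjusted p = 1.35e-45), after 76.5, 69.6 and 73.9 CPM against 87.1, 75.8 and 82.2 CPM at 6 h, where the groups overlapped. Ncapd2, Ncapg and Ncaph encode the subunits particular to condensin I. Ncapd2 (mm10 chromosome 6, 125168007 to 125191701, minus strand) had 129, 136 and 139 CPM in the vehicle and 53.1, 49.1 and 53.6 CPM with imiquimod at 6 h, 2.59-fold lower. At 16 h the vehicle too had fallen, to 48.97, 47.4 and 54.6 CPM, and imiquimod stood at 86.3, 83.6 and 83.6 CPM (0.75, SE 0.052, adjusted p = 8.79e-23). Ncaph, the kleisin subunit gene, had 28.1, 29.8 and 27.1 CPM against 20.9, 20.9 and 22.3 CPM at 6 h and 6.16, 7.98 and 6.70 against 29.2, 30.6 and 24.7 CPM at 16 h, where the level was 4.06-fold higher with imiquimod. Ncapg was lower at 6 h (-0.51) and higher at 16 h (1.61, SE 0.078, adjusted p = 5.03e-32).

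Cdc20 and Ube2c, which encode the mitotic activator of the anaphase-promoting complex and its ubiquitin-conjugating enzyme, were lower at 6 h and not called at 16 h. Cdc20 rose in the vehicle from 17.96, 17.8 and 19.03 CPM at 0 h to 27.7, 29.4 and 31.4 CPM at 6 h and had 12.9, 11.9 and 13.3 CPM with imiquimod at 6 h. At 16 h it had 9.28, 8.78 and 8.70 CPM in the vehicle and 10.7, 9.76 and 8.34 CPM with imiquimod, overlapping ranges that left both groups near 48.9% and 52.5% of the vehicle at 0 h. With Ccnb2 and Cdc25c, the phosphatase gene that activates CDK1, these were the 4 members for which no difference was called at 16 h. The SE of their log2 fold changes was 0.11 for Ccnb2, 0.12 for Cdc20, 0.15 for Ube2c and 0.19 for Cdc25c, so small changes in these genes were not detectable.

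Another 105 genes of mitosis were described in 6 lists. With imiquimod at 6 h, 51 were lower and 25 higher (median -0.18), where 39.2% of all genes tested were lower and 37.7% higher. At 16 h 84 were higher and 10 lower (median 0.77), where 39.1% of all genes tested were higher and 38.1% lower. In the vehicle from 0 to 16 h, 82 fell and 7 rose (median -0.79), where 30% of all genes tested fell and 28.4% rose. The lists differed at 6 h: 5 subunits of the anaphase-promoting complex were higher and 5 lower, and 5 cohesin, separase and shugoshin genes were higher and 6 lower. Kinetochore genes outside the 46 were higher at 16 h in 27 of 28, led by Oip5 (2.77, SE 0.19, adjusted p = 3.89e-23) and Cenph (2.56). Of 26 other spindle and cytokinesis genes, 20 were lower at 6 h, with Depdc1b (-2.44, SE 0.14, adjusted p = 6.18e-27) and Aspm (-1.52) lowest, and 22 were higher at 16 h, led by Pbk (2.72) and Plk4 (2.06). Subunits and activators of the anaphase-promoting complex had 6 of 15 higher at 16 h, near the share of all genes tested (39.1%), and 1 lower. Their median of 0.12 was the lowest of the 6 lists. Cdc27, the gene of a subunit of that complex, was higher at both times (1.24 and 1.11). The shift of -0.35 between scalings at 6 h applies to these genes as to all others.

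Among 17 genes of cohesin, separase and shugoshin, 12 were higher and 4 lower at 16 h, where 39.1% of all genes tested were higher and 38.1% lower. The securin gene Pttg1, whose product holds separase inactive until anaphase, stood apart at 6 h, at 6.20 ± 0.441 CPM in the vehicle and 65.5 ± 5.98 CPM with imiquimod (mean ± SD, n = 3; log2 fold change 3.40, SE 0.092, adjusted p = 9.78e-49). Of 16 G2/M regulators, 14 were higher at 16 h, beside the same 39.1% of all genes tested. Mybl2, which encodes the B-MYB protein that joins the MuvB complex on CHR promoters, had 8.33 ± 0.803 CPM in the vehicle and 27.8 ± 1.13 CPM with imiquimod at 6 h (1.74, SE 0.096, adjusted p = 1.8e-28), and 3.53 ± 0.486 against 35.3 ± 1.36 CPM at 16 h (3.32, SE 0.11, adjusted p = 1.02e-42). Cdc25b, a phosphatase gene of mitotic entry, was lower at 6 h (-2.16, SE 0.11, adjusted p = 4.63e-31).

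A list of 20 DNA replication genes, which peak ahead of mitosis, was higher with imiquimod in 18 of 20 at 6 h (median 0.65). At 16 h it was higher in 20 of 20 (median 2.55). Of all genes tested, 37.7% were higher at 6 h and 39.1% at 16 h. The summed level of the list was 1175 to 1226 CPM in the vehicle at 0 h, 617 to 677 CPM at 6 h and 404 to 418 CPM at 16 h. With imiquimod it was 1017 to 1038 CPM at 6 h and 2057 to 2138 CPM at 16 h. At 16 h with imiquimod that list thus lay above its level at 0 h in every library, whereas the 46 members in sum lay below theirs.

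Reads of some members can be shared with other genes. The strand setting of the counting is not given in the sources used here, and exons on the opposite strand cover 23.3% of the 75-base windows of Kif20a (Cdc23), 13.8% of Kif4 (Pdzd11), 11% of Ncapg (Lcorl), 10.8% of Ccna2 (Exosc9), 10.7% of Cdc25c, 10.1% of Ube2c (Tnnc2) and 7.76% of Prc1 (Rccd1). Of the windows of Ccnb1, 18.9% are found in pseudogenes and related models, so its division of reads is uncertain. On the same strand, exons of Ncapd2 overlap the snoRNA gene Scarna10 by 237 bases and the model Gm28967 by 235 bases. Of the windows of Ncapd2, 2.49% are shared with these. Exons of Top2a overlap the snoRNA model Gm23451 by 122 bases (0.526% of windows). How far reads of these overlapping genes add to the levels of Ncapd2 and Top2a was not tested.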

How the data were processed

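RNA from 18 libraries (6 groups of 3) was measured by rRNA-depleted, directional, paired RNA-seq, per the labels' protocols. The authors deposited raw counts per gene. STAR and the mm10 genome are named in the submitters' processing notes. The STAR version, counting program, strand setting and annotation release are not given in the sources used here. Groups came from the sample titles.

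Genes passing edgeR's filterByExpr (minimum count 10) were kept, 14876 of 54532. TMM-scaled counts of all 6 groups were fitted together with edgeR 4.0.16 (robust quasi-likelihood; R 4.3.3, limma 3.58.1), with p-values adjusted by Benjamini-Hochberg over all genes tested and called under 0.05. CPM used TMM-scaled library sizes. The biological coefficient of variation was 3.08%. The SE of a log2 fold change was its size divided by the square root of F. The fit was tested on simulated data.

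The 46 genes, their roles and the other lists were chosen with earlier results of these data known. Library values are given for the highest member of each role and the 4 highest and 4 lowest called members of each imiquimod comparison and of the vehicle at 16 against 0 h; Top2a and Cdk1 were added after their values were seen. Beyond the members, up to 2 called genes of largest change are named per list and comparison, and the markers Gfi1, Mpo and Pax5 were named after their values were seen. Promoter windows came from RefSeq (GRCm38.p6), and positions and exon overlaps from GENCODE M21, matched to 97.8% of identifiers.

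Alternatives were scaling by library totals, DESeq2 size factors, DESeq2 1.42.0, another filter or none, only the groups compared, a replicate block and leaving out each library. Libraries of a group differed by more than sampling noise, with a chi-square per degree of freedom of 1.31 to 10.1, so none was counted as a duplicate. The pairs of vehicle 6 h libraries had the highest values (10.1, 4.09 and 4.05), followed by untreated replicates 1 and 3 (4.01). That vehicle group is the reference of imiquimod at 6 h.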

Additional observations from a re-analysis of the deposited data

Results flagged for a closer look

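The imiquimod effect differed between 6 and 16 h for all 46 members by edgeR's quasi-likelihood test of the difference, as did 56.9% of all genes tested. The value given for each gene is the log2 fold change of imiquimod against the vehicle at 16 h minus that at 6 h. Among markers of cycling it was positive for Mki67 (1.25) and Top2a (1.68). Mitotic entry genes gave positive differences for Cdk1 (1.80), Ccnb1 (1.02), Ccnb2 (1.04), Ccna2 (1.58), Cdc25c (1.31), Plk1 (1.13) and Aurka (1.24). The checkpoint genes were Bub1 (1.77), Bub1b (1.70), Bub3 (0.34), Mad2l1 (1.65), Ttk (2.27), Kntc1 (2.65) and Zwilch (2.00). Passenger complex genes gave Aurkb (1.81), Birc5 (1.76), Incenp (1.26) and Cdca8 (1.39). For the centromere and kinetochore the values were those of Cenpa (0.46), Cenpe (0.88), Cenpf (0.69), Ndc80 (1.66), Nuf2 (1.75), Spc24 (2.33) and Spc25 (2.27). Spindle motors and assembly factors gave Kif11 (1.91), Kif2c (1.71), Kif4 (1.08), Tpx2 (0.65), Hmmr (1.52) and Nusap1 (1.11). In cytokinesis the genes were Kif20a (1.37), Kif23 (-1.05), Prc1 (1.31), Racgap1 (0.45), Ect2 (1.12) and Anln (1.35). Condensin genes gave Smc2 (1.69), Smc4 (0.64), Ncapd2 (2.12), Ncapg (2.12) and Ncaph (2.43). The partners of the anaphase-promoting complex were Cdc20 (1.32) and Ube2c (0.72). The sign was negative for Kif23 and positive for the other 45, with TMM and with library totals. Leaving out each library in turn gave 45 higher and 1 lower every time.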

How the results depend on the processing

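Each count of members and each member's log2 fold change was recomputed under every alternative. Scaling by library totals changed most. At 6 h with imiquimod, 1 member was then higher in place of 5, where 31.1% in place of 49.0% of calls over all genes were higher. Values turned negative for Top2a (-0.32), Bub3 (-0.30), Kntc1 (-0.27), Kif4 (-0.049), Kif23 (-0.21) and Smc2 (-0.19). Cdk1 (-0.35), Cenpe (-0.41), Ccnb1 (-0.46) and Incenp (-0.47) gained a call as lower. With imiquimod from 6 to 16 h, 28 members were higher and 7 lower in place of 15 and 18. Of the calls over all genes, 74.6% were higher there under library totals. Values turned positive for Top2a (0.16), Ccna2 (0.043), Bub3 (0.28), Ndc80 (0.27), Nuf2 (0.23), Hmmr (0.28), Prc1 (0.085), Racgap1 (0.16) and Anln (0.19). By construction this scaling moves all genes of a comparison by about the same amount. In the vehicle from 0 to 6 h, 3 members were lower in place of 5 when only the groups compared were fitted. Leaving out each library in turn gave 3 to 5 lower members there, and 3 was reached without vehicle 0 h replicate 1 or 3. Of 5796 single-gene values with a library left out, 24 gained a call, 32 lost it, and 33 changed sign, none of them called in either fit.

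Replicate numbers are shared by the groups, but same-numbered libraries did not deviate together (r from -0.0961 to 0.0345 over 45 pairs). With the replicate block, member counts were 5 higher and 34 lower at 6 h, 38 higher and 4 lower at 16 h, and no call of the 322 single-gene values changed. DESeq2's Wald test lost 8 of those calls and changed the sign of 2 values that were not called, Cdk1 at 6 h with imiquimod and Ccna2 in the vehicle from 0 to 6 h. Depth limits the least abundant members most: Spc24 had 28 counts in its lowest library.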
